A study of Sus scrofa with 3 samples.

Results

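The genes described here are 10 genes of the hepatic stellate cell and of liver fibrosis: COL1A1, COL1A2, COL3A1, DCN, LOX, MMP2, TIMP1, TGFB1, PDGFRB and ACTA2. Each was taken as the entry with that gene symbol among the 34579 annotated features of the liver RNA-Seq tables, and each was found once. All 10 were mRNA features and had a deposited FPKM of at least 1 in every library, the minimum that 15613 of the 22945 mRNA features met. By its name FPKM is fragments per kilobase of exon, scaled to the fragments mapped. The deposited values were higher than that definition gives with the reads recovered below, so the minimum was more lenient than its name.

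The libraries came from Chinese Wuzhishan miniature pigs, males that were sexually mature at 6 to 7 months when obtained and older when the livers were taken, after acclimation and the diet period. Every group received the HFC diet, in which lard, egg yolk, cholesterol and sodium cholate were added to swine feed. IM pigs were intact and had a sham operation, CM pigs were surgically castrated, and CMT pigs were castrated and received testosterone propionate in corn oil by weekly intramuscular injection from the day of castration. There was no group on a normal diet, so the values say nothing of the diet itself, and an injection of oil alone in the IM and CM groups is not given in the sources used here. RNA of 3 pigs per group, according to the labels, was mixed in equal amounts into 1 library. The methods describe larger groups and do not state how many pigs were pooled. With 1 library per group, the spread between pigs is unknown, no difference could be tested, and every ratio below compares 3 libraries with each other.

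Hepatic stellate cells are the vitamin A-storing pericytes of the liver sinusoid. In injured liver they can turn into contractile, matrix-producing myofibroblasts, driven by transforming growth factor beta and platelet-derived growth factor. The fibrillar collagens type I and type III that they secrete form the scar, lysyl oxidases crosslink it, and the balance of matrix metalloproteinases and their tissue inhibitors sets how fast it is removed. None of these genes belongs to stellate cells alone, since portal fibroblasts, vascular smooth muscle, endothelium and macrophages use several of them. In RNA of whole liver, fewer cells of a type and less RNA per cell cannot be told apart.

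The deposited FPKM values were whole multiples of a step, or of simple parts of it, for 97.3% of the 24277 features above 0, which gave back the reads behind them. The IM, CM and CMT libraries held 32197633, 36126736 and 25419904 whole reads. Ratios are given with a 95% exact binomial (Clopper-Pearson) interval of these reads, which covers counting error only. The interval is too wide where a factor common to the reads of a gene in all 3 libraries was lost, and too narrow where a fragment was counted once per mate. The deposited scale also mattered: when the libraries were set to equal sums of recovered reads, every CM to IM log2 ratio shifted by 0.28, every CMT to CM log2 ratio by -0.24 and every CMT to IM log2 ratio by 0.04. Scaling by the median ratio of all genes shifted them by 0.02, -0.01 and 0.01.

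None of the 10 genes differed 1.5-fold between CM and IM, where 23.2% of all mRNA features above the minimum did, with 11.1% higher in CM and 12.1% lower. From CM to CMT, 1 of the 10 did, TIMP1, which was lower in CMT, against a background of 25.7% in either direction and 13.5% lower. None did between CMT and IM, against a background of 16.8%, of which 6.67% were higher and 10.1% lower in CMT. The median log2 ratio of the 10 genes was 0.02 for CM to IM, -0.20 for CMT to CM and -0.18 for CMT to IM, beside medians of -0.02, 0.01 and -0.01 over all genes. Their log2 ratios had a standard deviation across genes of 0.24, 0.30 and 0.16, compared with 0.65, 0.72 and 0.52 over all genes. Their summed FPKM was 1649.0, 1770.7 and 1498.5 in the IM, CM and CMT libraries, the order in which values are given throughout. With the libraries set to equal recovered reads, 2 of the 10 passed 1.5-fold in CM versus IM, both higher in CM (TIMP1 and ACTA2), where the background was 28.4%, 22% higher and 6.42% lower. The same 2 genes passed in CMT versus CM on that scale, both lower, with a background of 29.2%, of which 6.82% were higher and 22.4% lower.

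**Figure D1:**
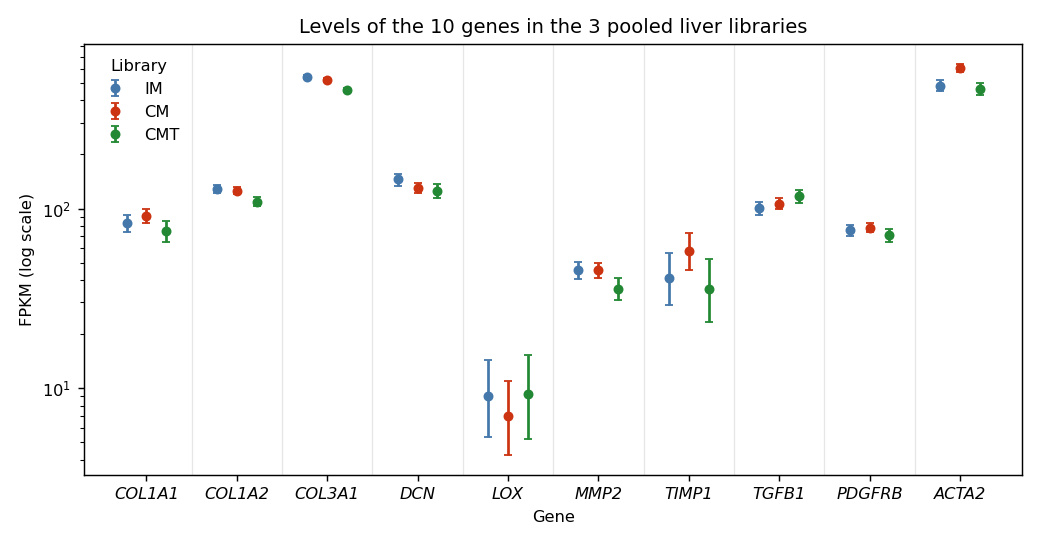
FPKM (log axis) of the 10 genes in the IM, CM and CMT libraries, grouped by role, 1 point per pooled library with a 95% exact interval of its recovered reads (counting error only). For each gene the 3 points lie close together, between the 1.11-fold range of PDGFRB and the 1.63-fold range of TIMP1, while the genes themselves span from 9.08 for LOX to 537.9 for COL3A1 in IM.

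COL3A1, the chain of type III collagen, had the highest level of the 3 collagens, at FPKM values of 537.9 (IM), 518.7 (CM) and 457.0 (CMT). It lay above 90.8% of the 15613 mRNA features in IM. COL1A2, which encodes the alpha 2 chain of type I collagen, measured 128.7, 125.9 and 109.0 in the same order, and COL1A1, the alpha 1 chain of that collagen, measured 82.6, 91.1 and 74.9. All 3 collagen genes were lowest in CMT. With counting intervals, CM had 0.964 times the COL3A1 of IM (0.933 to 0.996) and 0.979 times its COL1A2 (0.918 to 1.04), while COL1A1 was 1.10 times the IM level (0.952 to 1.28). With the reads halved this interval of COL3A1 reached past 1 (0.921 to 1.01). With equal recovered reads the log2 ratios of CM to IM became 0.23 for COL3A1, 0.25 for COL1A2 and 0.42 for COL1A1, so that a direction for COL3A1 and COL1A2 in CM versus IM depended on the scale.

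The difference between CMT and CM was in 1 direction for the 3 collagens on every scale tried. CMT had 0.822 times the COL1A1 of CM (0.698 to 0.966), 0.866 times its COL1A2 (0.806 to 0.931) and 0.881 times its COL3A1 (0.849 to 0.914). If every fragment had been counted as 2 reads, the interval of COL1A1 would reach past 1, while those of COL1A2 and COL3A1 would still lie below it. Relative to each other the chains moved little. The FPKM of COL3A1 was 4.18 times that of COL1A2 in IM, 4.12 times in CM and 4.19 times in CMT, and that of COL1A2 was 1.56, 1.38 and 1.46 times that of COL1A1.

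DCN encodes decorin, a small proteoglycan that binds collagen fibrils and transforming growth factor beta. Its level (FPKM) was 145.2, 130.3 and 125.2, highest in IM and lowest in CMT. The ratio of CM to IM was 0.898 (0.809 to 0.997), a direction that turned with equal recovered reads (log2 ratio 0.12), and that of CMT to IM was 0.862 (0.764 to 0.973). CMT and CM were not separated by the counting interval, at 0.960 (0.855 to 1.08). With the reads halved the DCN intervals of CM to IM and CMT to IM also reached past 1 (upper ends 1.04 and 1.02).

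LOX, lysyl oxidase, which oxidises lysines of collagen and elastin so that the fibres crosslink, had the lowest level of the 10 genes, with FPKM values of 9.08, 7.03 and 9.31 in the IM, CM and CMT libraries. It rested on 18, 19 and 15 recovered reads. All 3 intervals of its ratios held 1, from 0.385 to 1.57 for CM to IM and from 0.626 to 2.75 for CMT to CM, the widest of the 10 genes. In IM it lay above only 17.0% of the mRNA features that passed the minimum.

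MMP2, the gelatinase that stellate cells and fibroblasts secrete, measured 45.4 FPKM in IM pigs, 45.3 in CM pigs and 35.7 in CMT pigs. The CM to IM ratio was 0.998 with an interval from 0.863 to 1.16, and 99.5% of all genes had a larger log2 difference between these libraries. In CMT the level was 0.788 times that of CM (0.665 to 0.933) and 0.787 times that of IM (0.658 to 0.940). With the reads halved both of these intervals reached past 1 (upper ends 1.001 and 1.014). With equal recovered reads the CM to IM log2 ratio of MMP2 became 0.28 and the CMT to CM log2 ratio -0.58, just inside 1.5-fold.

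TIMP1, the secreted inhibitor of metalloproteinases whose level is used as a marker of fibrosis, varied more than the other 9 genes. The pools of IM, CM and CMT had 41.2, 58.0 and 35.6 FPKM, so CM was high and the other libraries were close to each other. CM was 1.41 times IM, with an interval from 0.934 to 2.16 that held 1. CMT was 1.63-fold lower than CM (1.03 to 2.66), and this was the one difference of 1.5-fold among the 10 genes on the deposited scale. It rested on 37, 71 and 26 recovered reads, and with those reads halved the interval of the CMT to CM ratio ran from 0.302 to 1.21. Across all genes, 20.1% had a larger log2 difference between CMT and CM. The FPKM of TIMP1 was 0.907 times that of MMP2 in IM, 1.28 times in CM and 0.997 times in CMT, but in each library the counting intervals of the 2 genes overlapped.

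TGFB1, the ligand transforming growth factor beta 1 and the main inducer of collagen synthesis in stellate cells, measured 100.2, 106.5 and 116.7 FPKM in the IM, CM and CMT libraries. It was the only gene of the 10 apart from LOX with its highest level in CMT. CMT was 1.17 times IM (1.03 to 1.31), an interval that included 1 with the reads halved. CM to IM was 1.06 (0.954 to 1.19) and CMT to CM was 1.10 (0.981 to 1.22). On the scale of equal recovered reads the CMT to CM log2 ratio of TGFB1 turned to -0.11.

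PDGFRB, the receptor through which platelet-derived growth factor drives stellate cell division, is a pericyte marker in quiescent and activated liver alike. The IM, CM and CMT levels were 75.6, 78.3 and 70.8 FPKM, the most even of the 10 genes as deposited. The ratios were 1.04 for CM to IM (0.943 to 1.14), 0.904 for CMT to CM (0.817 to 1.002) and 0.937 for CMT to IM (0.840 to 1.05), so each of these intervals lay within 1.5-fold. With equal recovered reads the log2 ratios of PDGFRB were 0.33 for CM to IM and -0.38 for CMT to CM. On that scale it was not the most even, since LOX had -0.09 and 0.17.

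ACTA2 encodes alpha smooth muscle actin, the usual marker of the myofibroblast and also of vascular smooth muscle. IM, CM and CMT livers had 483.2, 609.4 and 464.3 FPKM, so CM was highest and the other libraries were close. CM was 1.26 times IM (1.16 to 1.37) and CMT was 0.762 times CM (0.694 to 0.836), and both intervals stayed on the same side of 1 with the reads halved. CMT and IM were not separated, at 0.961 (0.867 to 1.065). With equal recovered reads the log2 ratios were 0.62 and -0.63, past 1.5-fold. Of all genes, 43.6% had a larger log2 difference than ACTA2 between CM and IM and 39.8% between CMT and CM. The actin genes are alike in sequence, and how reads shared between them were assigned is not given in the sources used here.

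**Figure D2:**
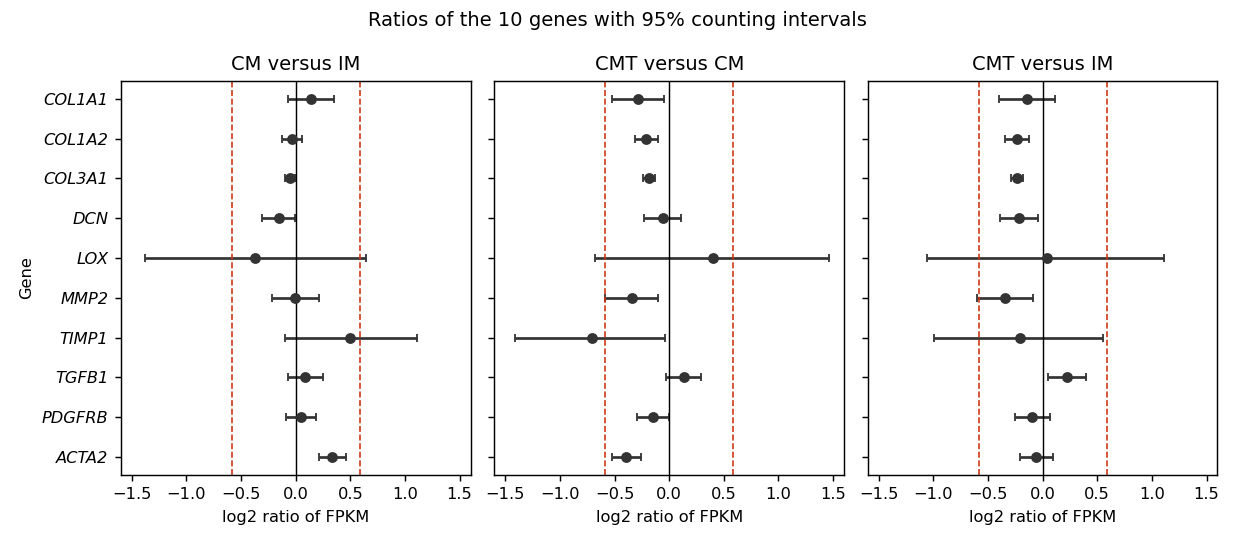
Ratios of FPKM (log2 axis) of the 10 genes for CM to IM, CMT to CM and CMT to IM, each point with its 95% exact interval of recovered reads, and dashed lines at 1.5-fold. Only TIMP1 in CMT versus CM lies past a dashed line, and the interval of LOX is the widest in each panel.

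In CM versus IM the counting interval lay above 1 for 1 of the 10 genes (ACTA2) and below 1 for 2, beside 22.4% above and 27.1% below among the 15140 mRNA features above the minimum whose reads were recovered. In CMT versus CM it lay above 1 for 0 genes and below 1 for 6, beside 27.6% and 21.8%. In CMT versus IM the numbers were 1 and 4, beside 19.8% and 17.9%. With the reads halved, 1 gene stayed above 1 and 0 below in CM versus IM. The numbers were then 0 and 3 in CMT versus CM (COL1A2, COL3A1 and ACTA2 below) and 0 and 2 in CMT versus IM (COL1A2 and COL3A1 below). The shares over all genes with halved reads are not given here. Whether an interval leaves out 1 depends on the reads of a gene as well as on its ratio.

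CMT was the lowest of the 3 libraries for 8 of the 10 genes, all but LOX and TGFB1, where 32.7% of all mRNA features above the minimum were lowest in CMT. The count was 8 on each of the other 3 scales too, with a background between 33% and 42.4%. The genes are expressed in part by the same cells and share 3 libraries, so the 8 are not 8 separate observations. CM was highest for COL1A1, TIMP1, PDGFRB and ACTA2, and IM for COL1A2, COL3A1, DCN and MMP2. On the scale of equal recovered reads CM was highest for 9 of the 10, beside 61.7% of all genes. CMT versus CM and CM versus IM share the CM library, and CMT versus IM shares a library with each, so the comparisons are not independent of one another.

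None of the 10 genes stood 1.5-fold apart from both other libraries at once. Over all mRNA features above the minimum, 3.45% did so with IM high and 2.79% with IM low, 6.87% with CM high and 7.12% with CM low, and 2.69% with CMT high and 5.44% with CMT low.

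The order of the levels was nearly the same in the 3 livers. In IM it ran COL3A1, ACTA2, DCN, COL1A2, TGFB1, COL1A1, PDGFRB, MMP2, TIMP1 and LOX. The neighbours DCN and COL1A2, TGFB1 and COL1A1, COL1A1 and PDGFRB, and MMP2 and TIMP1 did not differ beyond their counting intervals. In CM, ACTA2 stood above COL3A1, by a factor of 1.175, and TIMP1 above MMP2, whose intervals overlapped. In CMT, ACTA2 and COL3A1 were level, and TGFB1 came before COL1A2 with overlapping intervals. These comparisons between genes are of FPKM, a level per length of transcript.

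**Figure D3:**
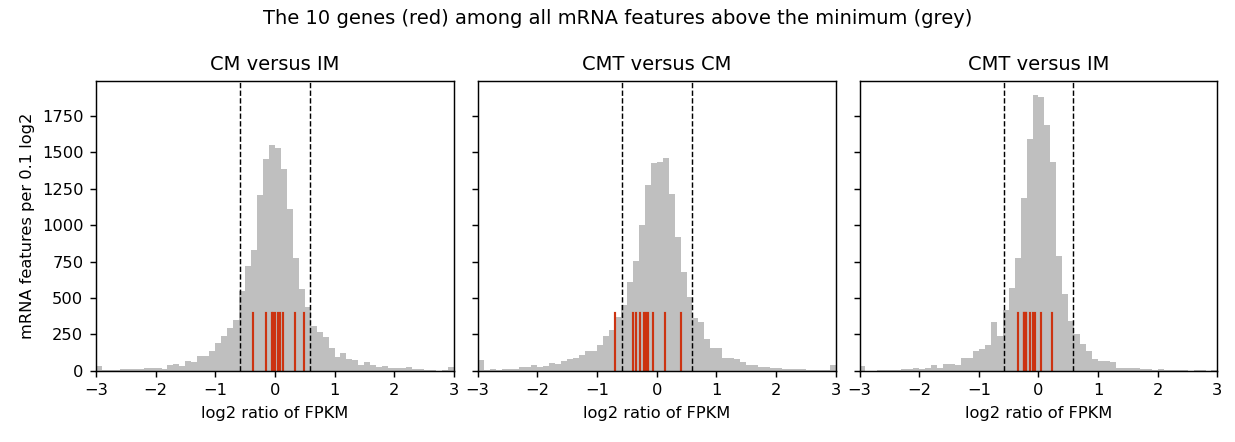
Distribution of log2 ratios of FPKM over the 15613 mRNA features above the minimum (grey, in bins of 0.1 log2, values past 3 in either direction gathered in the outer bins), with the 10 genes as red lines and 1.5-fold as dashed lines. The red lines sit in the middle of the distribution in all 3 panels, and only TIMP1 in CMT versus CM passes a dashed line.

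The patterns nearest to that of COL1A1 over the 3 libraries, among 12118 mRNA features of 10 FPKM or more in each and outside the 10 genes, were those of RBM12, LOC100157694 and CD2AP, with a distance of 0.011, 0.013 and 0.014 in the plane of the CM to IM and CMT to CM log2 ratios. A distance of up to 0.2 was found for 1449 features, 12.0% of those compared, so the pattern of COL1A1 was common.

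A wider set of 115 genes, in 10 lists of matrix and stellate cell genes that include the 10 genes above, placed them among their pathway. Of these, 100 were found under their symbol and 98 passed the minimum. Of the 98, 17 (17.3%) differed 1.5-fold in CM versus IM, 6 of them higher and 11 lower. In CMT versus CM 20 did (20.4%), with 9 higher and 11 lower, and in CMT versus IM 19 did (19.4%), with 6 higher and 13 lower. The first 2 shares were under the background of 23.2% and 25.7% and the last was near its 16.8%. The medians of the log2 ratios were -0.07, 0.02 and -0.10, beside -0.02, 0.01 and -0.01 over all genes. Of the 17 genes in CM versus IM, 16 passed with scaling by the median ratio, 14 by the upper quartile and 11 with equal recovered reads, none was reversed, and 3, 4 and 14 further genes came in. With equal recovered reads the balance of directions turned, to 20 higher and 5 lower in CM versus IM and to 4 higher and 19 lower in CMT versus CM, as it did over all genes.

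The fibrillar collagens held 6 genes, the 3 above and the type V chains COL5A1, COL5A2 and COL5A3, and none of the 6 differed 1.5-fold in any comparison. COL5A1 measured 27.9, 23.6 and 24.0 FPKM, and COL5A2 47.5, 36.3 and 44.0. In CMT versus IM all 6 lay below 1, with a median log2 ratio of -0.23, where 7959 of all 15613 mRNA features above the minimum did. Only for COL1A2 (0.785 to 0.915) and COL3A1 (0.818 to 0.883) did the counting interval leave out 1. Among 8 other collagens, 1 was 1.5-fold higher in CM than in IM, beside 11.1% of all genes. This was COL8A1, a short-chain collagen of vessel walls, at 9.08, 14.8 and 2.16 FPKM. It rested on 57, 127 and 11 recovered reads and was the lowest in CMT. The genes of this list with the highest mean FPKM were COL18A1, whose end fragment is endostatin (1501, 1023 and 1595), and COL4A1 of the basement membrane (122.6, 108.4 and 110.4), and neither differed 1.5-fold in CM versus IM.

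Among 13 genes of collagen processing and crosslinking, CM stood 1.5-fold above IM for 1 and below it for 3, beside 11.1% and 12.1% of all genes. P4HA1, the catalytic subunit of the prolyl hydroxylase that stabilises the collagen helix, was the most abundant at 654, 265 and 530 FPKM. CM was 2.47-fold lower than IM (2.31 to 2.64), and P4HA1 passed 1.5-fold on each scale. Of the lysyl oxidase relatives of LOX, LOXL1 was higher in CM (7.53, 13.6 and 9.07). LOXL3 was 1.5-fold lower on the deposited scale but not with equal recovered reads (4.11, 2.39 and 2.44). It rested on 29, 23 and 14 recovered reads, and its CM to IM interval of 0.322 to 1.04 held 1. LOXL4 was lower in CM and highest in CMT (12.2, 6.53 and 34.8). The family of crosslinking enzymes therefore did not move in 1 direction. PLOD3, a lysyl hydroxylase and the next most abundant gene of the list, was even at 208, 227 and 208 (log2 CM to IM ratio 0.13).

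The 18 proteoglycans and glycoproteins of the matrix held 2 that were 1.5-fold above IM in CM and 3 that were below. Over all genes these shares were 11.1% and 12.1%. THBS1, thrombospondin, which can activate latent transforming growth factor beta, measured 52.6, 101.8 and 24.0 FPKM. LAMB1, a laminin chain of the basement membrane, was 63.9, 112.3 and 32.4. CM was 1.94 times IM for THBS1 (1.72 to 2.18) and 1.76 times for LAMB1 (1.58 to 1.95), and for both CMT was the lowest library. TNC (6.30, 3.66 and 3.99), FBN1 (23.1, 15.4 and 15.6) and FBLN1 (837, 484 and 728), which encode tenascin C, fibrillin and fibulin, were lower in CM, but none of these 3 passed 1.5-fold with equal recovered reads, and FBN1 passed only as deposited. FN1, fibronectin, which hepatocytes secrete in large amounts, was the most abundant at 6941, 7305 and 5707.

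Of 8 matrix proteases and inhibitors, 2 were 1.5-fold lower in CM than in IM and none was 1.5-fold higher. The background was 12.1% lower and 11.1% higher. MMP9, a gelatinase of neutrophils and macrophages, measured 19.7, 3.05 and 9.37 FPKM on 57, 12 and 22 recovered reads, 6.47-fold lower in CM (3.43 to 13.3). MMP1, an interstitial collagenase, was 10.4, 1.76 and 46.6 on 52, 12 and 190 recovered reads, 5.90-fold lower in CM (3.11 to 12.2) and highest in CMT. MMP19 and MMP14 were the most abundant proteases, at 1312, 998 and 1295 and at 215, 223 and 193, and did not differ 1.5-fold.

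The list of transforming growth factor beta ligands, receptors and signalling proteins had 16 genes above the minimum. In CM 1 of them was 1.5-fold above IM and 2 were below, beside 11.1% and 12.1% of all genes. While TGFB1 was even, TGFB3 was 10.8, 18.1 and 8.54, with CM 1.67 times IM (1.40 to 2.01). LTBP1, which holds the latent ligand in the matrix, was lower in CM (140.5, 92.1 and 99.2). It was no longer 1.5-fold lower with equal recovered reads or the upper quartile. LTBP2 was lower in CM as well (6.25, 2.59 and 4.33). Among 7 target genes of the pathway, CCN2, connective tissue growth factor, was higher in CM (187.4, 351.0 and 205.6), with CM 1.87 times IM (1.65 to 2.13) on 350, 893 and 312 recovered reads. ID2 was 1.5-fold lower in CM (1185, 772 and 764) except with equal recovered reads or the upper quartile, and ID3 was even (402, 455 and 424). In CMT versus CM, 3 of the 7 target genes were 1.5-fold lower and none was 1.5-fold higher, CCN2 and ID1 among the 3. Over all genes 13.5% were lower and 12.1% higher on the deposited scale, and 22.4% and 6.82% with equal recovered reads. ID1, named here because of its value, measured 64.7, 96.1 and 61.9 FPKM.

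The 5 genes of the platelet-derived growth factor list, PDGFRB among them, had none past 1.5-fold in CM versus IM. PDGFC, the most abundant ligand, was 135.6, 144.0 and 180.3. PDGFD, named for its value, was 7.39, 6.98 and 1.95 on 28, 36 and 6 recovered reads. It was the only gene of the list past 1.5-fold in CMT versus CM, where 25.7% of all genes were.

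None of 9 contractile genes differed 1.5-fold between CM and IM as deposited, where 23.2% of all genes did. In CMT 2 were 1.5-fold lower than in CM, beside 13.5% of all genes. These were TAGLN, which encodes transgelin (352, 489.2 and 289.2), and CNN1, which encodes calponin (20.2, 29.3 and 16.1), both named because of their values. Like ACTA2, both were highest in CM, and they passed 1.5-fold in CM versus IM with equal recovered reads. MYH11 (47.3, 41.9 and 37.4) and DES (87.7, 64.6 and 54.6) were highest in IM instead as deposited. They are 2 more genes of smooth muscle, chosen after their values were seen. The CM to IM interval of MYH11 held 1 (0.742 to 1.06). With equal recovered reads the shift of 0.28 outweighed its log2 ratio of -0.17, so MYH11 was then higher in CM than in IM. For DES, at -0.44, the direction stayed. CALD1, caldesmon, the most abundant of the list, was even as deposited (796, 779 and 736).

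**Figure D4:**
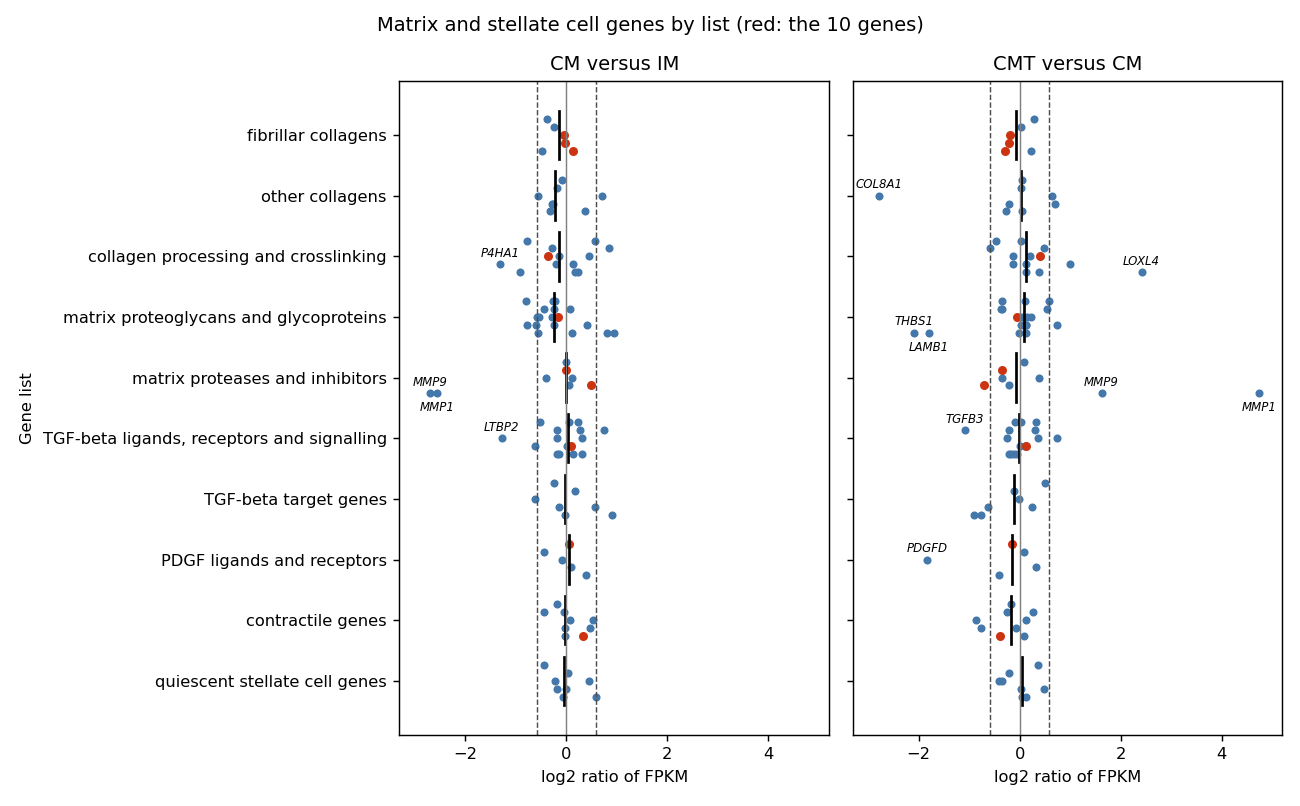
Log2 ratios of FPKM for CM to IM and CMT to CM in 10 lists of matrix and stellate cell genes, 1 point per gene that passed the minimum, the 10 genes in red, the list median as a vertical bar and 1.5-fold as dashed lines, with symbols for genes past 1 on the log2 scale. The medians stay near 0 in both panels, while single genes such as MMP1, LOXL4 and COL8A1 lie far from their list.

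Genes of the quiescent, vitamin A-storing stellate cell were measured as well, which bears on the name given to the 10 genes. Of 8 that passed the minimum, none differed 1.5-fold in CM versus IM or in CMT versus CM as deposited. In CMT versus IM 2 did, beside 16.8% of all genes. COLEC11, a collectin of stellate cells, measured 584, 579 and 591 FPKM. LRAT, the enzyme that esterifies retinol for storage, was 7.24, 10.8 and 11.8, with CM 1.495 times IM, just inside 1.5-fold and past it on each of the other 3 scales, and CMT 1.63 times IM. RGS5, a gene of pericytes named for its value, was 52.9, 45.4 and 34.0, with CMT 1.56-fold lower than IM. With equal recovered reads CYGB, cytoglobin, also passed 1.5-fold in CM versus IM, and CYGB and RGS5 did in CMT versus CM. GFAP was under the minimum (0.798, 3.12 and 0.981, on 6, 32 and 6 recovered reads). The other markers RELN, NGFR and HAND2 were not found under those symbols and were not analysed here.

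Marker lists of other liver cells also differed between the libraries. ALB, the main hepatocyte product, led with 690375, 476360 and 445509 FPKM, and 8 hepatocyte markers, TF the next of them (115328, 118067 and 122937), summed to 985083, 748411 and 729558. CYP2E1, the only gene of the 8 past 1.5-fold in CM versus IM and named for its value, went the other way, at 3148, 14546 and 54.4 FPKM. The log2 CM to IM ratio of the hepatocyte sum was -0.40 as deposited and -0.12 with equal recovered reads. The 6 T and NK cell markers summed to 413, 561 and 309. All 6 were above 1 in CM versus IM, none by 1.5-fold, and all 6 were below 1 in CMT versus CM, 5 by 1.5-fold. Of all genes, 13.5% were 1.5-fold lower in CMT than in CM. NKG7 (165.9, 218.4 and 151.3) and CD2 (84.9, 116.6 and 56.5) were the most abundant of the 6 markers. All 6 were highest in CM and lowest in CMT, the order also of COL1A1, TIMP1, PDGFRB and ACTA2. Of all genes, 35.2% were highest in CM and 32.7% lowest in CMT, and the share with both is not given here. Of 5 cholangiocyte markers, 3 were 1.5-fold higher in CM than in IM, against 11.1% of all genes, and 2 were below 1. They summed to 895, 833 and 1203, of which SPP1 (812, 729 and 1136) made up most, and EPCAM was 36.6, 62.6 and 41.4. The log2 CM to IM ratio of the cholangiocyte sum turned from -0.10 as deposited to 0.18 with equal recovered reads. Whether these cells had a part in the values of TIMP1, ACTA2 and the other genes was not tested.

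Endothelial markers (7 found) summed to 4017, 3316 and 3744, led by CLEC4G (2487, 1975 and 2318) and ENG (450.8, 386.2 and 422.8). The 7 macrophage markers summed to 15156, 13312 and 15884, led by CD5L (5504, 3902 and 5181) and C1QA (4739, 4452 and 5481). Both sums were lowest in CM as deposited, where MMP9 was lowest too, but with equal recovered reads the log2 CM to IM ratio of the sums was 0.003 for the endothelial and 0.09 for the macrophage markers. Single markers differed from their list, named here for their values. MARCO was 4.998-fold lower in CM than in IM (413.6, 82.8 and 317.1), while C1QB (2599, 3432 and 2901) and the endothelial LYVE1 (195.8, 231.4 and 151.9) were highest in CM. Whether macrophages had a part in the value of MMP9 was not tested. Erythroid markers (4) summed to 17238, 3417 and 5183, almost all from HBB (17158, 3400 and 5151) with ALAS2 next (77.5, 16.2 and 30.6). The 5 mesothelial markers were near 0 in all libraries, with sums of 5.39, 6.25 and 10.6. UPK3B (3.72, 2.62 and 4.92) and MSLN (0.512, 2.26 and 3.78) led them, WT1 was listed at 0 in CMT and LRRN4 at 0 in IM.

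**Figure D5:**
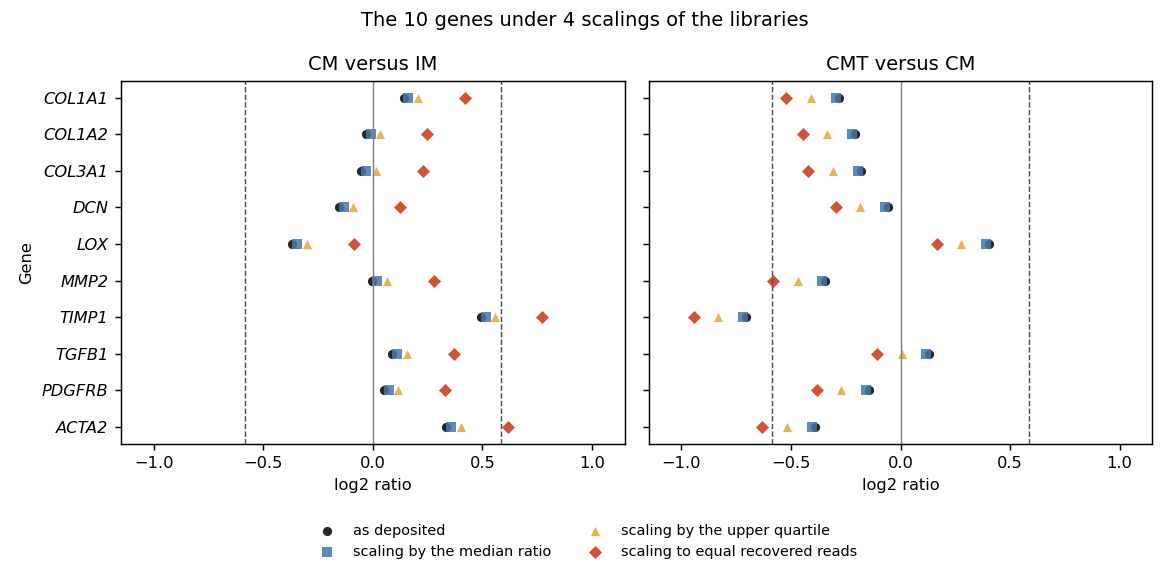
Log2 ratios of the 10 genes for CM to IM and CMT to CM under 4 scalings of the libraries (as deposited, by the median ratio, by the upper quartile and to equal recovered reads), with 1.5-fold as dashed lines. Setting the recovered reads equal moves all 10 points by 0.28 (CM to IM) and -0.24 (CMT to CM), which carries ACTA2 past the dashed line in both and TIMP1 past it in CM versus IM, and leaves the order of the genes as it was.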

How the data were processed

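Liver RNA was poly-A selected, made into TruSeq libraries and sequenced as paired-end reads on an Illumina instrument. The authors checked reads with FastQC, mapped them with TopHat at its default parameters to the pig genome Sscrofa 10.2 and deposited 1 table of FPKM values per library. The counting program and the annotation are not given in the sources used here. The FPKM values are normalised to length and to the library, so depth shows only through their steps.

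Reads were recovered as FPKM times length times a divisor per library (2.51 for IM, 3.42 for CM, 2.04 for CMT), with the smallest length up to 10000 bases that made all 3 values whole, or whole in parts of up to 3. Of 13 mitochondrial protein genes, 9 had a length within 2 bases of the annotated length. Other sets of divisors that were tried also gave 9, and some gave 10, such as 2.51, 5.13 and 2.04. This count therefore does not test the recovery. The chosen set had the lowest share of features whose reads had a common factor, at 67.7%. By the definition of FPKM a divisor stands for the mapped reads of its library. The divisors are smaller than the recovered reads would give and not in proportion to them. The deposited values are therefore higher than that definition gives, by a factor that differs between libraries. Of the scalings used, only equal recovered reads restores the proportions between libraries that the definition asks for. The recovery was also run on simulated reads. These were turned into FPKM with the same divisors, so that run could not test the choice of divisors.

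With 1 library per group, CM was set against IM, and CMT against CM and against IM, by the ratio of FPKM with no pseudocount. To be counted, an mRNA feature needed 1 FPKM or more in every library and a 1.5-fold difference. P-values were not computed. Named are the 10 genes, every gene of the matrix and stellate lists past 1.5-fold in CM versus IM, the 2 genes of each list with the highest mean FPKM, and the 3 patterns nearest to COL1A1. A few genes within this rule are not reported here. Others are marked as chosen by value, and the type V collagens, LRAT and GFAP were likewise added after their values were seen. The 10 genes, the lists and the alternatives were chosen with earlier results of these data known. Alternatives were 3 other scalings, a pseudocount of 1, a minimum of 10 or none, a threshold of 2-fold, and an added condition on the interval. Per the labels 3 pigs were pooled per group. Sequences and coordinates were not used here. Python 3.11.15 was used with numpy 2.4.6, pandas 2.3.3, scipy 1.17.1 and matplotlib 3.10.9.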

Additional observations from a re-analysis of the deposited data

How the results depend on the processing

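With libraries set to equal recovered reads, 2 of the 10 genes passed 1.5-fold in CM versus IM (median log2 ratio 0.30) and 2 in CMT versus CM (median -0.43), which follows from the shift of all genes. In CMT versus CM, no gene of the 10 passed 2-fold (0) and none passed once the interval of the halved reads also had to leave out 1 (0). For the wider lists, a minimum FPKM of 10 gave 8, 11 and 10 genes and a threshold of 2-fold gave 4, 8 and 7 genes for CM to IM, CMT to CM and CMT to IM, fewer because fewer genes could pass. The other 60 recomputed values stayed within 1.5 times the count or, for medians, within the typical counting error of 1 gene. Of 120 ratios of single genes recomputed under 3 scalings and a pseudocount, 101 stayed within their counting interval and 19 did not, 15 of them with equal recovered reads and 4 with the upper quartile. No paired analysis was possible because each group is 1 pooled library without a replicate number, and for the same reason no replicate could be left out. By their recovered reads, depth limits LOX and TIMP1 most. Those reads were taken at the smallest length that fit (790 and 358 bases), so a lost common factor would make them too low. Pooling hides the spread between pigs for all 10 genes.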

Other observations

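Among the 98 matrix and stellate cell genes above the minimum, 5 (5.1%) were at least 1.5-fold lower in CMT than in both other libraries, COL8A1, LAMB1, THBS1 and PDGFD among them, and the same 5 were among those that did so under each of the other 3 scalings. The background over all mRNA features was 5.44%, so the share was near it. CM stood 1.5-fold above both other libraries for 5 genes (COL8A1, LAMB1, THBS1, TGFB3 and CCN2), beside 6.87% of all genes, and 1.5-fold below both for 6 (LOXL4, P4HA1, FBLN1, MMP9, MMP1 and LTBP2), or 6.12% beside 7.12%. None of the 10 stellate cell and fibrosis genes was among them on the deposited scale, while TIMP1 and ACTA2 stood above both other libraries in CM with equal recovered reads, where 13.2% of all genes did.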
